A study of Homo sapiens with 18 samples.

Results

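The ATP-binding cassette (ABC) genes were described in 2 MYCN-amplified neuroblastoma cell lines, BE2C and Kelly, that carried short hairpin RNAs against AHR. The product of AHR is a transcription factor that small aromatic ligands switch on. The members were all genes whose symbol was ABC, a subfamily letter from A to G and a number. They came to 46 of the 39368 genes in each count table. Each line had 3 groups of 3 libraries: lentiviral shAhR-1, lentiviral shAhR-2 and the vector control pLKO-GFP, so all 18 libraries came from cells given a lentiviral construct and none from unmodified cells. The title of the series names the question, whether AHR promotes dedifferentiation of MYCN-amplified neuroblastoma. The labels give no time point and do not tie the 3 libraries of a group to separate cultures. The p-values therefore cover only the variation among these libraries, and that variation may be technical.

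ABC proteins bind and hydrolyse ATP in a pair of conserved nucleotide-binding domains, and most use that energy to move a substrate across a membrane. The B, C and G subfamilies include the pumps of multidrug resistance, such as P-glycoprotein (ABCB1), MRP1 (ABCC1) and BCRP (ABCG2). Many A and G members move sterols and phospholipids, the D members carry fatty acyl groups or cobalamin into or out of organelles, ABCC8 and ABCC9 are the sulfonylurea receptors that gate potassium channels, and the E and F members have no membrane domain and act on ribosomes. In neuroblastoma, ABCC1, ABCC3 and ABCC4 have been linked to MYCN and to outcome, with ABCC1 and ABCC4 high and ABCC3 low in MYCN-driven tumours. ABCB1 and ABCG2 are described in other cell types as genes that respond to AHR.

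Total counts ran from 32799682 to 45469353 per library. AHR was close to the limit of detection: its counts were 8, 0 and 0 in BE2C shAhR-1, 0 in every BE2C shAhR-2 library, and 4, 4 and 6 in BE2C pLKO-GFP, too low for a test. In Kelly, AHR counts were 18, 11 and 22 in the libraries labelled shAhR-1, 0, 4 and 0 in shAhR-2, and 4, 26 and 29 in pLKO-GFP. Changes were tested with edgeR's quasi-likelihood test, with p-values adjusted over all genes tested (Benjamini-Hochberg) and called below 0.05; SE follows ± of a log2 fold change and SD over 3 libraries follows ± of a level. AHR fell with Kelly shAhR-2 (log2 fold change -3.84 ± 0.81 (SE), edgeR adjusted p = 3.41e-05), while the libraries labelled Kelly shAhR-1 gave -0.10 ± 0.54 (edgeR adjusted p = 0.889). MYCN fell in all 4 comparisons, by 0.26 and 0.96 on the log2 scale with BE2C shAhR-1 and shAhR-2 and by 0.99 and 0.61 with Kelly shAhR-1 and shAhR-2. All 10 adrenergic neuroblastoma markers were detected in every group, and their summed level was 3801 to 3871 CPM (counts per unit of scaled library total) in BE2C shAhR-1, 2727 to 2748 in BE2C shAhR-2 and 4072 to 4242 in BE2C pLKO-GFP. In Kelly that sum was 3985 to 4042 CPM in shAhR-1, 5323 to 5436 CPM in shAhR-2 and 6511 to 6847 CPM in pLKO-GFP. Single adrenergic markers moved both ways: 2 rose and 6 fell with BE2C shAhR-1, and 2 rose and 8 fell with BE2C shAhR-2. With Kelly shAhR-1 2 rose and 5 fell, and with Kelly shAhR-2 3 rose and 7 fell. Of all genes, 52.3%, 75.1%, 60.5% and 75.4% were called, in that order. The 9 fibroblast markers summed to 180 to 189 CPM in BE2C shAhR-1, 296 to 308 CPM in BE2C shAhR-2 and 170 to 173 CPM in BE2C pLKO-GFP, against 79.2 to 91.1, 111 to 112 and 114 to 121 CPM in the same Kelly groups. FAP or COL1A2 was at 0 in each of those groups, 1 to 3 of the 9 in all, and the 6 leukocyte markers summed to at most 1.03 CPM in any library. Mitochondrially encoded genes took 24.3% to 24.9% of counts in BE2C shAhR-1, 20.5% to 25.1% in BE2C shAhR-2 and 18.8% to 19.4% in BE2C pLKO-GFP, and 17.4% to 17.7%, 15.2% to 15.8% and 14.5% to 15.6% in the same Kelly groups. The part of these shifts in the ABC results was not tested, and in bulk RNA fewer cells of a type and less RNA per cell cannot be told apart. Library 1 of BE2C shAhR-2 stood apart from its replicates by chi-square per gene, at 20.9 and 22.8 against 2.82 to 6.59 for the 16 other replicate pairs. It held 25.1% mitochondrially encoded counts where libraries 2 and 3 held 20.5%. Its median absolute log2 distance from the other libraries of its group was 0.076, against 0.0601 and 0.0713 for libraries 2 and 3. Without library 1 the members called in BE2C shAhR-2 still came to 15 higher and 15 lower.

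Of the 46 members, 33 passed the filter on low counts in BE2C and 36 in Kelly, and the 33 of BE2C passed in both lines. ABCA4, ABCA10 and ABCC8 passed in Kelly only. The 10 that passed in neither line had 0 to 65 counts over all 18 libraries. ABCB5 had none, ABCC13 had 1, and ABCB11, the bile salt export pump, and ABCC12 had 2 each. ABCG2 was also near 0, with counts of 0 in every BE2C shAhR-1 library, 4, 4 and 4 in BE2C shAhR-2, 6, 0 and 0 in BE2C pLKO-GFP and 0 in all 9 Kelly libraries. ABCA6, ABCA8, ABCA9, ABCA13 and ABCG5 made up the rest of these 10. Only the members that passed are counted below. ABCA1 and ABCC6 in BE2C, and ABCA4, ABCA10 and ABCC3 in Kelly, passed through shAhR-2 alone, where they were high, so their shAhR-2 values are given as a description with no p.

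The vector controls of the lines were first set against each other. Per kilobase of exon, which allows genes to be compared, the ribosome-recycling factor ABCE1 was highest in BE2C pLKO-GFP at 63.0 ± 2.15 CPM per kb (SD, n = 3), followed by the translation factor ABCF1 at 32.3 ± 0.552. In Kelly pLKO-GFP, ABCF1 at 34.0 ± 1.04 and ABCE1 at 33.9 ± 0.797 CPM per kb stood level within their spread. The next in order were ABCB1 at 20.4 and ABCA3 at 20.1 CPM per kb in BE2C, and ABCA3 at 15.7 and ABCF3 at 13.8 CPM per kb in Kelly. Of 36 members tested, 16 were higher and 16 lower in BE2C than in Kelly, 88.9% beside 76.2% of all genes called in the same comparison (37.2% higher and 39% lower). The 16 lower came to 13 under RLE size factors, without a filter and with DESeq2. They came to 12 with the replicate block and 11 with the filter on mean CPM. The 16 higher came to 14 to 16 under these alternatives. The line, its clone and whatever else differed between the tables of the lines cannot be told apart.

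Several members were close to line-restricted. ABCA12, known for moving lipid into the lamellar granules of skin, had 21.4, 20.4 and 21.2 CPM in BE2C pLKO-GFP against 0.155, 0.167 and 0.207 CPM in Kelly pLKO-GFP, a log2 difference of 6.88 ± 0.17 (edgeR adjusted p = 4.84e-36). ABCB1 was also higher in BE2C, at 118 ± 1.39 CPM against 19.6 ± 1.79 CPM in Kelly (log2 2.59 ± 0.05, edgeR adjusted p = 1.8e-39). The other way round, ABCC8 had 0.0421 ± 0.0528 CPM in BE2C against 10.6 ± 0.313 CPM in Kelly (log2 -7.89 ± 0.33), and ABCA5, an endolysosomal lipid transporter, had 0.349 ± 0.0662 against 30.3 ± 1.63 CPM (log2 -6.43 ± 0.14). Both were thus close to undetected in 1 line and plainly present in the other. The cholesterol exporter ABCA1 was lower in BE2C as well, at 0.166 ± 0.0294 CPM against 2.02 ± 0.385 CPM in Kelly (log2 -3.57 ± 0.31). ABCC6 and ABCA10 had no count in the BE2C controls, with 12, 4 and 14 counts of ABCC6 and 8, 2 and 6 of ABCA10 in the Kelly controls. ABCC4 was tested and not called in this comparison, at 56.0 ± 1.48 CPM in BE2C and 57.2 ± 1.21 CPM in Kelly (log2 -0.03 ± 0.053). ABCC1, at 92.8 ± 0.538 and 99.7 ± 0.735 CPM, was called at -0.10 ± 0.04, but the call was lost under RLE size factors, without a filter, with the filter on mean CPM, with DESeq2, with the replicate block (log2 -0.08 to -0.02, adjusted p 0.116 to 0.88) and without any of 4 control libraries (BE2C 1 or 3, Kelly 1 or 3; log2 -0.10 to -0.09, adjusted p 0.0538 to 0.0662).

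**Figure D1:**
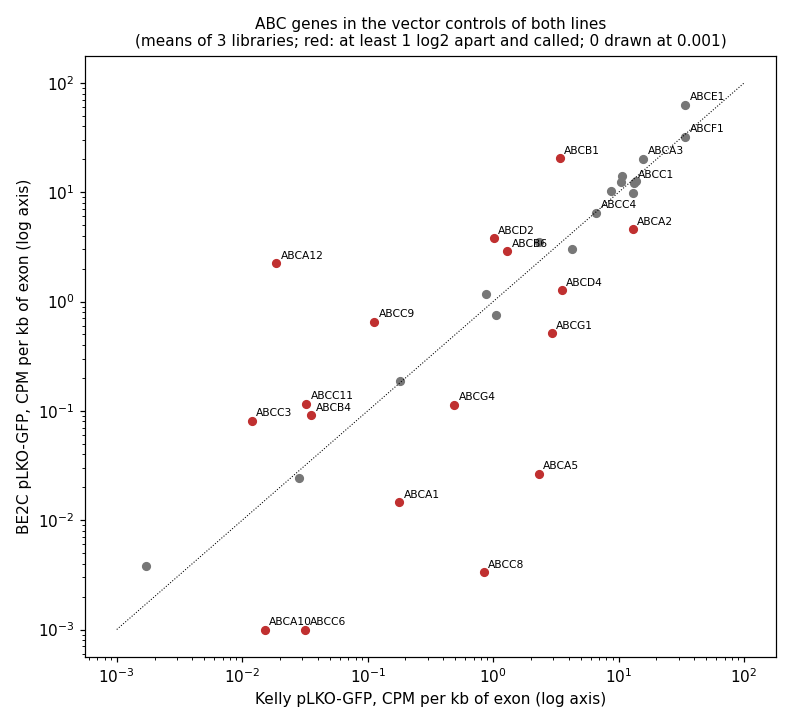
Mean level of the tested ABC genes in the vector controls, as CPM per kb of exon on log axes, with BE2C pLKO-GFP upward and Kelly pLKO-GFP across. ABCA12, ABCB1, ABCC3 and ABCC9 lie above the dotted line of equal level, ABCC8, ABCA5, ABCA1 and ABCG1 below it, and ABCE1 and ABCF1 sit at the top.

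Each hairpin was then set against pLKO-GFP within its line. With BE2C shAhR-1, 13 of 33 members were higher and 7 lower, 60.6% called beside 52.3% of all genes (25.2% higher and 27.1% lower). With BE2C shAhR-2, 15 were higher and 15 lower, 90.9% beside 75.1% (38% higher and 37.2% lower). In Kelly, the libraries labelled shAhR-1 had 14 of 36 members higher and 8 lower, 61.1% beside 60.5% (29.6% higher and 31% lower). Kelly shAhR-2 had 18 higher and 8 lower, 72.2% beside 75.4% (37.2% higher and 38.2% lower). Without the 2 BE2C and 3 Kelly members that passed through shAhR-2 alone, the counts were 12 higher and 7 lower of 31 with BE2C shAhR-1, 13 and 15 with BE2C shAhR-2, 14 and 8 of 33 with Kelly shAhR-1 and 15 and 8 with Kelly shAhR-2. The Kelly counts still include ABCA12, which no Kelly control library helped through the filter. The member shares in Kelly were near the background, and the comparisons within a line share their control libraries. The members' median log2 fold change was 0.09 with BE2C shAhR-1, where all genes tested had 0.01, and 0.18 with BE2C shAhR-2, where they had 0.03. It was 0.09 and 0.34 with Kelly shAhR-1 and shAhR-2, where all genes had 0.00 and -0.01.

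**Figure D2:**
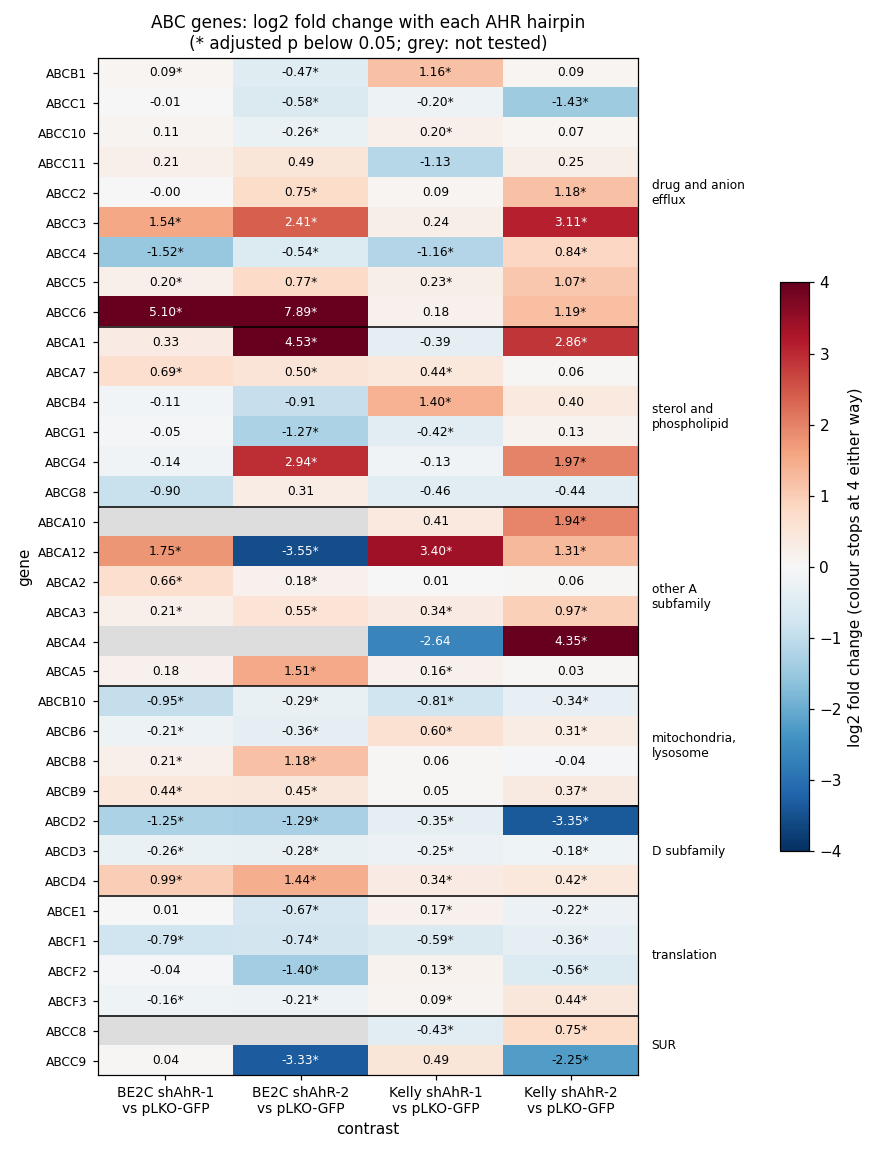
Log2 fold change of the tested ABC genes (rows, grouped by role) with each hairpin over pLKO-GFP (columns), coloured from blue (lower) to red (higher), with an asterisk at an adjusted p below 0.05. Columns of the same hairpin in the 2 lines share strong colours for ABCA1, ABCG4 and ABCC9 with shAhR-2; the BE2C values of ABCC6, 5.10 and 7.89, rest on controls with no count and are no bound.

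With both hairpins and in the same direction, 11 members rose and 7 fell in BE2C, 54.5% of 33 beside 32% of all genes (14.6% up and 17.4% down). The count includes ABCC6, and without ABCC6 and ABCA1 it was 10 and 7 of 31. In Kelly, 7 rose and 5 fell, 33.3% of 36 beside 27.2% (12.9% up and 14.3% down). The 7 include ABCA12, which passed in Kelly only through the hairpin groups. Another 2 members were called in opposite directions with the 2 hairpins in BE2C (ABCA12 and ABCB1) beside 12.6% of all genes, and 4 in Kelly (ABCC4, ABCC8, ABCE1 and ABCF2) beside 22.4%. The calls of ABCB1 with BE2C shAhR-1 (log2 0.09) and ABCF2 with Kelly shAhR-1 (log2 0.13) were lost under several alternatives given below. In all 4 hairpin comparisons, 4 of the 33 members tested in both lines were higher, ABCA3, ABCC5 and ABCD4 among them, beside 6.34% of all genes tested in both. All 4 had lower ABCB10, ABCD2, ABCD3 and ABCF1, beside 8.88% of all genes. The 7 members named here are plotted together, and their values are given below with their own role groups.

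**Figure D3:**
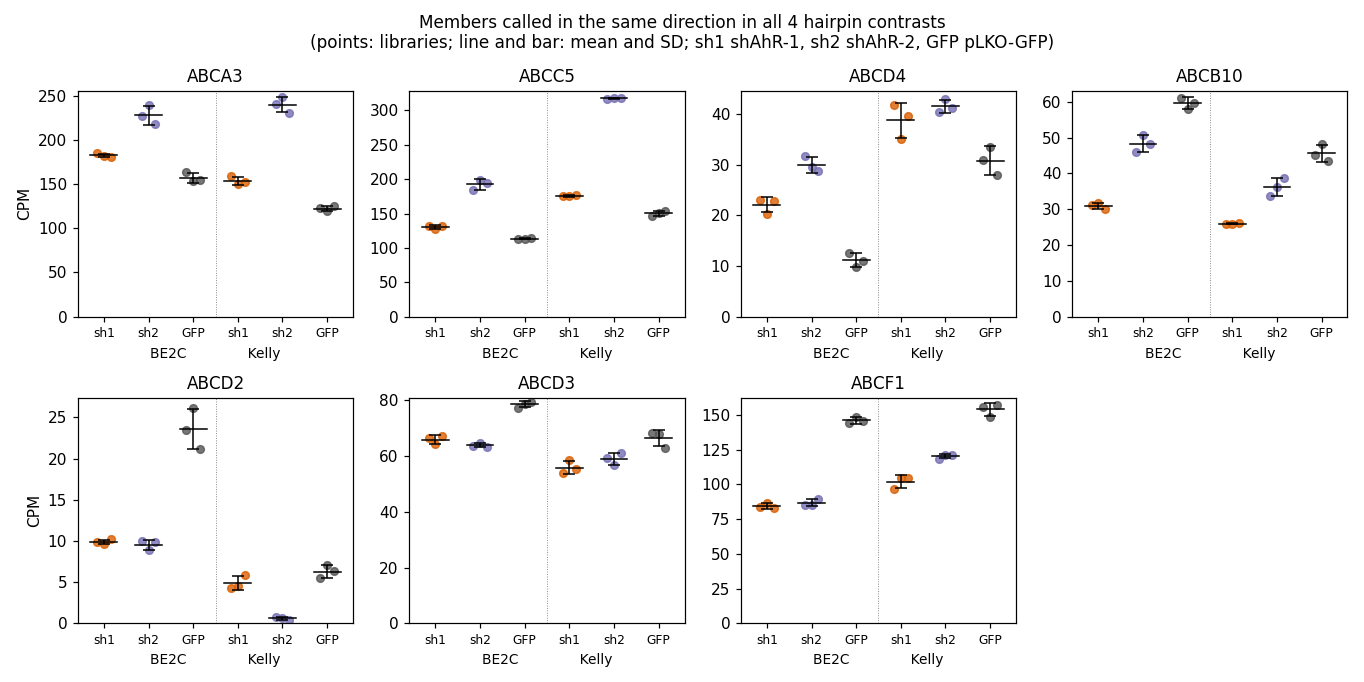
CPM in every library for 7 ABC genes called in the same direction in all 4 hairpin comparisons, with shAhR-1 and shAhR-2 left of pLKO-GFP in each line, points for libraries and bars for mean and SD. ABCD4 lies at 28.8 to 31.7 CPM in BE2C shAhR-2 where pLKO-GFP has 9.76 to 12.6, and ABCD2 drops to 0.432 to 0.831 CPM in Kelly shAhR-2 where pLKO-GFP has 5.50 to 7.06; the Kelly shAhR-1 and pLKO-GFP points of ABCD2 overlap.

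Upstream sequence is shown for some of these members because they moved the same way in every comparison. The 250 bases before the annotated start are printed below, 5′ to 3′ on the gene's strand, for 2 members that fell (ABCF1, ABCB10) and 2 that rose (ABCD4, ABCA3), each with a single start in the RefSeq table of GRCh38.p14. Capitals mark the E-box CACGTG, the letters bound by MYC-family dimers, which was found on searching both strands in ABCF1 and in none of the other 3 windows.
ABCF1, chr6:30571192-30571441, plus strand: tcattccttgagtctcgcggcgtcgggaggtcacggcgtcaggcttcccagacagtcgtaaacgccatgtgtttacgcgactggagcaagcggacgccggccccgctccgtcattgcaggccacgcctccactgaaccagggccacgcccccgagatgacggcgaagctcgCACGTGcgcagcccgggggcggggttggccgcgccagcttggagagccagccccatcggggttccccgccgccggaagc
ABCB10, chr1:229558708-229558957, minus strand: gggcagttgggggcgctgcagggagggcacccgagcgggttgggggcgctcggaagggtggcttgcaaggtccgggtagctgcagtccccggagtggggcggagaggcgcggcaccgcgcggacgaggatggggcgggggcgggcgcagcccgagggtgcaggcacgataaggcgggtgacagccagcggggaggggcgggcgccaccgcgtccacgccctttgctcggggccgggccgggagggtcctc
ABCD4, chr14:74302935-74303184, minus strand: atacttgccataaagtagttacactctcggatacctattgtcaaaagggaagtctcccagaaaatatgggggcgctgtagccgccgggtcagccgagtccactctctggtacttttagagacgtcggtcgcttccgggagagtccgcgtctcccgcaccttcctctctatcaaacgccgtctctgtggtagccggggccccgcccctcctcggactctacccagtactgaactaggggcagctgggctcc
ABCA3, chr16:2340729-2340978, minus strand: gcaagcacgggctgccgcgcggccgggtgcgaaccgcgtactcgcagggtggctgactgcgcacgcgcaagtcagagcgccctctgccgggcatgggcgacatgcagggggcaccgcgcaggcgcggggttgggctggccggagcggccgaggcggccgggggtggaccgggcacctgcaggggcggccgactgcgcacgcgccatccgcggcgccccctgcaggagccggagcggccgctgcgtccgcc
Over the whole family, 35 of 46 members had an entry, with 53 promoters. CACGTG stood in 9 of the 53 (17.0%), belonging to ABCA1, ABCA9, ABCA12, ABCB6, ABCB9, ABCC10, ABCF1 and ABCG2, beside 6.34% of 35116 promoters of all genes. Overlapping windows of ABCG2 held the same site, which was counted more than once. In ABCA12, ABCB9, ABCC10 and ABCG2 the E-box stood before some annotated starts and not others. The core of the dioxin response element, TNGCGTG, which the AHR-ARNT dimer binds, stood in 1 of the 53 (1.89%, ABCA2), beside 4.52% of all promoters. A match is a description of letters in this window and does not show a bound site.

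Among the 12 drug and organic anion pumps, 9 were tested in each line. The MYCN-linked ABCC1 (chr16:15949577-16143074, plus strand), which exports glutathione conjugates and anthracyclines, fell with shAhR-2 in both lines. It had 97.1, 91.5 and 88.5 CPM in BE2C shAhR-1, 60.9, 63.4 and 60.4 CPM in BE2C shAhR-2, and 92.7, 93.4 and 92.3 CPM in BE2C pLKO-GFP. Kelly levels were 89.2, 86.4 and 83.1 CPM in shAhR-1, 35.3, 37.6 and 38.5 CPM in shAhR-2, and 99.6, 99.0 and 100 CPM in pLKO-GFP. The BE2C shAhR-1 libraries straddled their controls, and in the other 3 comparisons the groups did not overlap. Fold changes on the log2 scale were -0.01 ± 0.041 and -0.58 ± 0.042 with BE2C shAhR-1 and shAhR-2 (edgeR adjusted p = 0.874 and 2.51e-14), and -0.20 ± 0.039 and -1.43 ± 0.041 with Kelly shAhR-1 and shAhR-2 (edgeR adjusted p = 8.3e-06 and 1.59e-34).

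ABCC4 (chr13:95019829-95301475, minus strand), the exporter of cyclic nucleotides and prostaglandins, was lower with both hairpins in BE2C and moved in opposite directions in Kelly. Its levels were 19.2, 22.1 and 17.4 CPM in BE2C shAhR-1, 39.2, 36.2 and 39.5 CPM in BE2C shAhR-2, and 55.5, 54.8 and 57.7 CPM in BE2C pLKO-GFP. In Kelly they were 25.4, 27.3 and 23.7 CPM in shAhR-1, 102, 104 and 102 CPM in shAhR-2, and 56.8, 58.6 and 56.3 CPM in pLKO-GFP. No 2 groups of a line overlapped, and the Kelly shAhR-2 libraries alone lay above their controls. The log2 fold changes were -1.52 ± 0.065 and -0.54 ± 0.061 in BE2C (edgeR adjusted p = 1.38e-19 and 1.37e-09) and -1.16 ± 0.047 and 0.84 ± 0.042 in Kelly (edgeR adjusted p = 2.57e-27 and 2.76e-24).

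ABCC3 (chr17:50634777-50692252, plus strand), a basolateral exporter of bile salts and glucuronides, was low and rose in BE2C. It had 2.47, 1.97 and 2.4 CPM in BE2C shAhR-1, 4.52, 4.15 and 3.69 CPM in BE2C shAhR-2, and 0.925, 0.683 and 0.735 CPM in BE2C pLKO-GFP. Kelly shAhR-1 had 0.0574, 0.210 and 0.145 CPM, Kelly shAhR-2 0.831, 1.25 and 1.06 CPM, and Kelly pLKO-GFP 0.221, 0.0957 and 0.0259 CPM, the last from 10, 4 and 1 counts. All shAhR libraries exceeded their controls except those labelled Kelly shAhR-1, which overlapped them. Fold changes on the log2 scale were 1.54 ± 0.23 and 2.41 ± 0.22 in BE2C (edgeR adjusted p = 5.9e-07 and 6.26e-12) and 0.24 ± 0.68 with Kelly shAhR-1 (edgeR adjusted p = 0.78). With Kelly shAhR-2 the log2 difference was 3.11. Thus with shAhR-2 ABCC1 fell in both lines, while ABCC4 fell in BE2C and rose in Kelly.

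**Figure D4:**
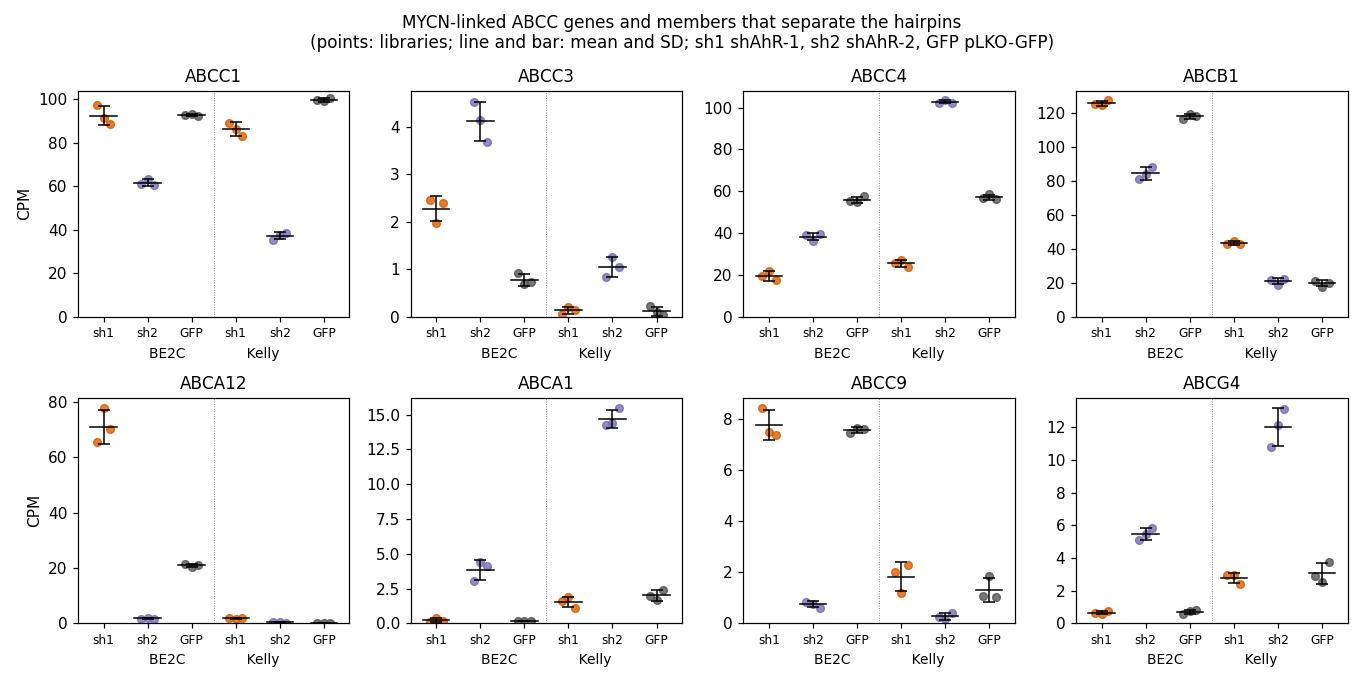
CPM in every library for the MYCN-linked genes ABCC1, ABCC3 and ABCC4 and for 5 members that separated the hairpins, with shAhR-1 and shAhR-2 left of pLKO-GFP in each line, points for libraries and bars for mean and SD. ABCC4 in Kelly lies at 23.7 to 27.3 CPM with shAhR-1, 102 to 104 CPM with shAhR-2 and 56.3 to 58.6 CPM with pLKO-GFP, and ABCA12 in BE2C at 65.4 to 77.5, 1.59 to 2.04 and 20.4 to 21.4 CPM.

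ABCB1, the P-glycoprotein that exports many chemotherapy drugs, had 125, 125 and 128 CPM in BE2C shAhR-1, 81.1, 84.2 and 88.4 CPM in BE2C shAhR-2, and 117, 120 and 118 CPM in BE2C pLKO-GFP. The Kelly libraries had 43.1, 44.9 and 43.0 CPM in shAhR-1, 21.6, 19.0 and 22.3 CPM in shAhR-2, and 21.1, 17.6 and 20.1 CPM in pLKO-GFP. The libraries labelled Kelly shAhR-1 all lay above every Kelly control, at a log2 fold change of 1.16 ± 0.064 (edgeR adjusted p = 7.19e-22), while Kelly shAhR-2 overlapped them at 0.09 ± 0.067 (edgeR adjusted p = 0.22). In BE2C the fall with shAhR-2 was 0.47 on the log2 scale (SE 0.038, edgeR adjusted p = 3.68e-13). The small rise with BE2C shAhR-1, 0.09 ± 0.037 (edgeR adjusted p = 0.0419), was lost under RLE size factors, without a filter, without pLKO-GFP library 1 or 3, without any shAhR-1 library and without shAhR-2 library 1, where adjusted p was 0.0528 to 0.184 over the library omissions.

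ABCC5, a pump of cyclic nucleotides, rose in all 4 comparisons. It had 132, 128 and 132 CPM in BE2C shAhR-1, 184, 200 and 195 CPM in BE2C shAhR-2, and 113, 113 and 114 CPM in BE2C pLKO-GFP. In Kelly it had 175, 175 and 177 CPM in shAhR-1, 317, 318 and 318 CPM in shAhR-2, and 146, 151 and 154 CPM in pLKO-GFP. No group overlapped its control, and shAhR-2 was the higher hairpin in both lines, with log2 fold changes of 0.20 ± 0.036 and 0.77 ± 0.035 for BE2C and 0.23 ± 0.03 and 1.07 ± 0.029 for Kelly (edgeR adjusted p = 1.76e-05, 1.23e-19, 2.09e-09 and 1.5e-35, in that order).

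ABCC6, whose loss causes pseudoxanthoma elasticum, had 3, 4 and 5 counts in BE2C shAhR-1, 28, 39 and 28 in BE2C shAhR-2, and none in the 3 BE2C controls. Against a floor of 3 counts over the control group, the observed level was 4.02-fold higher with BE2C shAhR-1 and 28.3-fold higher with BE2C shAhR-2. These folds leave out the counting error of the hairpin libraries, so they are not lower bounds. In Kelly it was called with shAhR-2 only, at 0.553 ± 0.166 CPM against 0.241 ± 0.135 CPM in pLKO-GFP, and that call was lost without pLKO-GFP library 1 or 2 or shAhR-2 library 2 (log2 0.81 to 1.27, edgeR adjusted p = 0.0524 to 0.177). ABCC6 shares near-identical sequence with listed pseudogenes, so its counts are uncertain. The canalicular pump ABCC2 rose with shAhR-2 in both lines, to 2.44 ± 0.619 CPM against 1.46 ± 0.211 CPM in BE2C pLKO-GFP (log2 0.75 ± 0.24, edgeR adjusted p = 0.00574) and to 3.18 ± 0.284 CPM against 1.41 ± 0.169 CPM in Kelly pLKO-GFP (log2 1.18 ± 0.2, edgeR adjusted p = 9.01e-07). ABCC11, the earwax transporter, was called in no hairpin comparison. Among the xenobiotic regulators, NFE2L2, the oxidative stress factor, rose with both hairpins in BE2C (log2 0.37 and 0.20) and with Kelly shAhR-1 (0.34) and fell with Kelly shAhR-2 (by 0.16); the pregnane receptor NR1I2 was not tested and NR1I3 was not called.

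Of the 8 cholesterol and phospholipid exporters, 6 were tested in each line, and the shAhR-2 libraries held the largest differences. ABCA1, which loads cholesterol and phospholipid onto apolipoproteins, had 0.117, 0.378 and 0.150 CPM in BE2C shAhR-1, 3.05, 4.41 and 4.12 CPM in BE2C shAhR-2, and 0.20, 0.146 and 0.152 CPM in BE2C pLKO-GFP. Kelly levels were 1.58, 1.89 and 1.14 CPM in shAhR-1, 14.3, 14.4 and 15.4 CPM in shAhR-2, and 1.94, 1.67 and 2.43 CPM in pLKO-GFP. The shAhR-2 libraries stood clear of their controls in both lines and the shAhR-1 libraries overlapped them. The log2 fold change with shAhR-2 was 2.86 ± 0.14 in Kelly (edgeR adjusted p = 3.64e-25) and stood at 4.53 in BE2C; with shAhR-1 they were 0.33 ± 0.51 and -0.39 ± 0.18 (edgeR adjusted p = 0.623 and 0.0563).

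ABCG4, a cholesterol exporter of neural cells, moved likewise. Its levels were 0.650 ± 0.0874 CPM in BE2C shAhR-1, 5.46 ± 0.365 CPM in BE2C shAhR-2 and 0.715 ± 0.132 CPM in BE2C pLKO-GFP (log2 with shAhR-2 2.94 ± 0.22, edgeR adjusted p = 4.2e-14). In Kelly they were 2.78 ± 0.313 CPM in shAhR-1, 12.0 ± 1.16 CPM in shAhR-2 and 3.07 ± 0.64 CPM in pLKO-GFP (log2 with shAhR-2 1.97 ± 0.13, edgeR adjusted p = 2.23e-19). Its relative ABCG1, which passes cholesterol to HDL, did not: it fell to 1.28 ± 0.176 CPM with BE2C shAhR-2 against 3.13 ± 0.323 CPM in pLKO-GFP (log2 -1.27 ± 0.2, edgeR adjusted p = 9.56e-07). In Kelly, ABCG1 was 13.3 ± 1.47 CPM in shAhR-1, 19.7 ± 1.13 CPM in shAhR-2 and 17.9 ± 1.68 CPM in pLKO-GFP, and was called lower with shAhR-1 only (log2 -0.42 ± 0.081, edgeR adjusted p = 1.1e-05).

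ABCA7, a phospholipid transporter known as an Alzheimer disease risk gene, rose with both hairpins in BE2C. It had 17.9, 14.1 and 15.7 CPM in shAhR-1, 12.4, 14.3 and 15 CPM in shAhR-2, and 9.52, 11 and 9.15 CPM in pLKO-GFP, with no overlap between either hairpin and the controls. The log2 fold changes were 0.69 ± 0.1 and 0.50 ± 0.1 (edgeR adjusted p = 5.23e-07 and 3.44e-05). In Kelly it was called with shAhR-1 (log2 0.44 ± 0.11) and not with shAhR-2 (0.06 ± 0.11). ABCB4, the phosphatidylcholine floppase, was called only with Kelly shAhR-1, at 0.737 ± 0.184 CPM against 0.274 ± 0.13 CPM in pLKO-GFP (log2 1.40 ± 0.47, edgeR adjusted p = 0.00914), and that call was lost without pLKO-GFP library 3 (log2 1.08, adjusted p = 0.0742). ABCG8, a sterol exporter of gut and liver, was called in no hairpin comparison.

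The other sterol genes listed with these exporters moved in both directions: of 8 tested, 1 rose and 4 fell with BE2C shAhR-1, 3 rose and 4 fell with BE2C shAhR-2, none rose and 4 fell with Kelly shAhR-1, and 2 rose and 2 fell with Kelly shAhR-2, where 52.3%, 75.1%, 60.5% and 75.4% of all genes were called. MYLIP, a ubiquitin ligase for the LDL receptor that sterol-sensing LXR induces, rose with shAhR-2 in both lines (log2 2.06 ± 0.095 in BE2C and 1.53 ± 0.082 in Kelly). SREBF1, the lipogenic factor that LXR also induces, fell with shAhR-2 in both lines (log2 -1.96 ± 0.065 and -1.84 ± 0.045). APOE, an acceptor of exported lipid, rose with BE2C shAhR-2 (log2 2.25 ± 0.35) and fell with Kelly shAhR-1 (-1.53 ± 0.2).

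Of the other 10 A-subfamily members, 4 were tested in BE2C and 6 in Kelly. ABCA12 (chr2:214931542-215138428, minus strand) moved in opposite directions with the hairpins in BE2C. It had 65.4, 77.5 and 70.0 CPM in BE2C shAhR-1, 1.70, 2.04 and 1.59 CPM in BE2C shAhR-2, and 21.4, 20.4 and 21.2 CPM in BE2C pLKO-GFP. The 3 groups were fully apart, shAhR-1 above and shAhR-2 below the controls, at log2 fold changes of 1.75 ± 0.065 and -3.55 ± 0.098 (edgeR adjusted p = 3.19e-21 and 1.23e-25). In Kelly it was close to the lower end of detection, with 2.01, 1.63 and 1.96 CPM in shAhR-1, 0.538, 0.534 and 0.259 CPM in shAhR-2, and 0.155, 0.167 and 0.207 CPM in pLKO-GFP. Both Kelly hairpins lay above the controls, from 12 to 81 counts per library against 7, 7 and 8, at log2 fold changes of 3.40 and 1.31. No Kelly control library reached the filter's minimum for ABCA12, so it passed in Kelly only through the hairpin groups, where it was higher. Its Kelly fold changes are therefore given as a description with no p.

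ABCA3 (chr16:2275881-2340746, minus strand), the surfactant lipid transporter of lamellar bodies, rose in all 4 comparisons. It had 185, 182 and 180 CPM in BE2C shAhR-1, 226, 239 and 218 CPM in BE2C shAhR-2, and 163, 153 and 155 CPM in BE2C pLKO-GFP. The Kelly libraries had 159, 150 and 152 CPM in shAhR-1, 241, 248 and 230 CPM in shAhR-2, and 122, 120 and 125 CPM in pLKO-GFP. No hairpin group overlapped its control, and shAhR-2 was above shAhR-1 in both lines, with log2 fold changes of 0.21 ± 0.035 and 0.55 ± 0.035 for BE2C and 0.34 ± 0.033 and 0.97 ± 0.032 for Kelly (largest edgeR adjusted p = 5.08e-06). ABCA2, an endolysosomal lipid transporter abundant in oligodendrocytes, rose with both hairpins in BE2C, to 83.3 ± 1.25 CPM in shAhR-1 and 59.1 ± 2.81 CPM in shAhR-2 against 52.6 ± 3.76 CPM in pLKO-GFP (log2 0.66 ± 0.048 and 0.18 ± 0.049), though the shAhR-2 and control libraries overlapped. In Kelly it had 149 ± 8.28, 155 ± 4.29 and 148 ± 4.19 CPM in shAhR-1, shAhR-2 and pLKO-GFP and was not called.

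ABCA5 rose with BE2C shAhR-2, to 0.994 ± 0.22 CPM against 0.349 ± 0.0662 CPM in pLKO-GFP (log2 1.51 ± 0.44, edgeR adjusted p = 0.00237). In Kelly, where it was about 31.1 ± 1.57 CPM in shAhR-2 and 30.3 ± 1.63 CPM in pLKO-GFP, it was called only with shAhR-1 (33.7 ± 0.682 CPM, log2 0.16 ± 0.057), a call lost without pLKO-GFP library 1 or shAhR-1 library 3 (log2 0.12 to 0.14, edgeR adjusted p = 0.0513 to 0.0905). ABCA4, the retinal lipid transporter, had 0, 0 and 0 counts in Kelly shAhR-1, 18, 14 and 18 in shAhR-2, and 2, 0 and 0 in pLKO-GFP. ABCA10, a neighbour of ABCA5 with which it shares 3.78% of its exon bases, had 10, 8 and 1 counts in Kelly shAhR-1, 19, 25 and 21 in Kelly shAhR-2 and 8, 2 and 6 in Kelly pLKO-GFP.

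The mitochondrial and lysosomal members of the B subfamily come next. ABCB10, an inner-membrane transporter needed for heme synthesis in red cell precursors of mice, fell in all 4 comparisons. It had 31.2, 31.7 and 30.0 CPM in BE2C shAhR-1, 45.9, 50.7 and 48.1 CPM in BE2C shAhR-2, and 61.2, 57.8 and 59.6 CPM in BE2C pLKO-GFP. In Kelly it had 25.8, 26.0 and 26.1 CPM in shAhR-1, 33.7, 36.2 and 38.6 CPM in shAhR-2, and 45, 48.2 and 43.6 CPM in pLKO-GFP. The groups did not overlap and shAhR-1 was the lowest in both lines, with log2 fold changes of -0.95 ± 0.052 and -0.29 ± 0.05 for BE2C and -0.81 ± 0.056 and -0.34 ± 0.054 for Kelly (largest edgeR adjusted p = 3.57e-06). Listed pseudogenes share sequence with ABCB10, so its counts are uncertain.

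ABCB8, part of a mitochondrial potassium channel, rose to 63.6 ± 4.24 CPM with BE2C shAhR-2 and 32.8 ± 0.601 CPM with BE2C shAhR-1 against 28.3 ± 1.92 CPM in pLKO-GFP (log2 1.18 ± 0.057 and 0.21 ± 0.06), and was called with neither hairpin in Kelly (0.06 ± 0.053 with shAhR-1 and -0.04 ± 0.053 with shAhR-2). ABCB9, a lysosomal peptide transporter, rose with both hairpins in BE2C (log2 0.44 ± 0.088 and 0.45 ± 0.087) and with Kelly shAhR-2 (0.37 ± 0.08); its exons overlap OGFOD2 and ARL6IP4 on the other strand (12.5% and 12.0% of its bases), and without a stated strand setting their reads cannot be told apart.

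ABCB6, a porphyrin transporter, had opposite signs in the lines, at 13 ± 0.273 CPM in BE2C shAhR-1, 11.6 ± 0.687 CPM in BE2C shAhR-2 and 15 ± 0.347 CPM in BE2C pLKO-GFP, and 10.2 ± 0.324 CPM in Kelly shAhR-1, 8.38 ± 0.74 CPM in Kelly shAhR-2 and 6.73 ± 0.979 CPM in Kelly pLKO-GFP. Fold changes on the log2 scale were -0.21 ± 0.084 and -0.36 ± 0.084 in BE2C and 0.60 ± 0.11 and 0.31 ± 0.11 in Kelly. The call with BE2C shAhR-1 was lost without a filter and without library 2 or 3 of shAhR-1 or pLKO-GFP (edgeR adjusted p = 0.0549 to 0.0895), and that with Kelly shAhR-2 without pLKO-GFP library 3 or shAhR-2 library 2 (log2 0.19 to 0.23, edgeR adjusted p = 0.0791 to 0.125). Exons of ABCB6 overlap the gene AC068946.2 over 54.7% of its bases. Of the 5 heme and iron-sulfur genes listed, 2 fell with BE2C shAhR-1, 3 fell with BE2C shAhR-2, 2 rose and 2 fell with Kelly shAhR-1, and 3 rose and 2 fell with Kelly shAhR-2, beside the same 52.3%, 75.1%, 60.5% and 75.4% of all genes called. GLRX5, a mitochondrial glutaredoxin of iron-sulfur assembly, fell with shAhR-2 in both lines (log2 -1.33 ± 0.052 and -1.07 ± 0.051).

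In the D subfamily, ABCD2 and ABCD3 were lower and ABCD4 higher in all 4 comparisons. ABCD2 (chr12:39550033-39619751, minus strand) is a peroxisomal transporter of fatty acyl groups. It had 9.84, 9.68 and 10.2 CPM in BE2C shAhR-1, 9.97, 8.87 and 9.84 CPM in BE2C shAhR-2, and 23.4, 26.1 and 21.2 CPM in BE2C pLKO-GFP. The Kelly libraries had 4.34, 4.49 and 5.87 CPM in shAhR-1, 0.831, 0.604 and 0.432 CPM in shAhR-2, and 5.50, 7.06 and 6.32 CPM in pLKO-GFP. The BE2C groups and Kelly shAhR-2 lay wholly below their controls, while the libraries labelled Kelly shAhR-1 overlapped theirs. The log2 fold changes were -1.25 ± 0.088 and -1.29 ± 0.088 in BE2C (edgeR adjusted p = 6.63e-14 and 5.9e-15) and -0.35 ± 0.15 and -3.35 ± 0.2 in Kelly (edgeR adjusted p = 0.0398 and 2.98e-21). The Kelly shAhR-1 call was lost with DESeq2 and with the filter on mean CPM at nearly the same fold change (log2 -0.35 to -0.34, adjusted p 0.0505 to 0.063), and without pLKO-GFP library 2 or 3 or shAhR-1 library 1 or 2 (log2 -0.35 to -0.26, edgeR adjusted p = 0.0751 to 0.188).

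ABCD3, a peroxisomal carrier of branched-chain and dicarboxylic acyl groups, fell by a small amount. It had 66.4, 64.2 and 67.3 CPM in BE2C shAhR-1, 63.8, 64.8 and 63.5 CPM in BE2C shAhR-2, and 77.5, 78.8 and 79.6 CPM in BE2C pLKO-GFP. In Kelly it had 53.9, 58.5 and 55.3 CPM in shAhR-1, 59.4, 56.9 and 61.0 CPM in shAhR-2, and 68.5, 68.0 and 63.1 CPM in pLKO-GFP. No hairpin group overlapped its control, and the log2 fold changes lay between -0.28 and -0.18 (largest edgeR adjusted p = 0.000261).

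ABCD4 (chr14:74285423-74303056, minus strand), which serves the release of cobalamin from lysosomes, rose in each comparison. It had 23.1, 20.4 and 22.8 CPM in BE2C shAhR-1, 31.7, 29.5 and 28.8 CPM in BE2C shAhR-2, and 12.6, 9.76 and 11.1 CPM in BE2C pLKO-GFP. Kelly levels were 41.8, 35.0 and 39.6 CPM in shAhR-1, 40.5, 42.9 and 41.2 CPM in shAhR-2, and 30.9, 33.5 and 27.9 CPM in pLKO-GFP. Every hairpin library was above its controls, with log2 fold changes of 0.99 ± 0.083 and 1.44 ± 0.081 for BE2C and 0.34 ± 0.06 and 0.42 ± 0.059 for Kelly (largest edgeR adjusted p = 2.78e-06). The gene AC005519.1 covers 7.12% of its exon bases on the same strand. Among the 7 peroxisomal import and beta-oxidation genes listed, 1 rose and 4 fell with BE2C shAhR-1, 4 rose and 1 fell with BE2C shAhR-2, 5 fell with Kelly shAhR-1, and 3 rose and 4 fell with Kelly shAhR-2; of all genes, 52.3%, 75.1%, 60.5% and 75.4% were called. HSD17B4, the multifunctional beta-oxidation enzyme, fell in all 4 (log2 -0.13, -0.30, -0.12 and -0.52).

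All 4 ATPases of translation were tested in both lines: 2 fell with BE2C shAhR-1, 4 fell with BE2C shAhR-2, 3 rose and 1 fell with Kelly shAhR-1, and 1 rose and 3 fell with Kelly shAhR-2. Among all genes, 27.1%, 37.2%, 31% and 38.2% fell and 25.2%, 38%, 29.6% and 37.2% rose in the same comparisons, and 4 members are too few to read against these shares. ABCF1 (chr6:30571376-30597179, plus strand), which aids initiation of translation, had 83.7, 86.7 and 82.7 CPM in BE2C shAhR-1, 85.2, 85.1 and 89.5 CPM in BE2C shAhR-2, and 144, 149 and 145 CPM in BE2C pLKO-GFP. The Kelly libraries had 96.6, 105 and 105 CPM in shAhR-1, 118, 121 and 121 CPM in shAhR-2, and 156, 148 and 157 CPM in pLKO-GFP. Each hairpin group was below its controls, at log2 fold changes of -0.79 ± 0.037 and -0.74 ± 0.037 for BE2C (edgeR adjusted p = 1.81e-18 and 1.56e-18) and -0.59 ± 0.034 and -0.36 ± 0.034 for Kelly (edgeR adjusted p = 7.12e-21 and 7.05e-14). Its upstream window, printed above, holds the E-box.

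ABCE1, which splits ribosomes after termination, fell with shAhR-2, to 246 ± 1.86 CPM against 395 ± 13.4 CPM in BE2C pLKO-GFP (log2 -0.67 ± 0.03) and to 182 ± 0.773 CPM against 212 ± 4.97 CPM in Kelly pLKO-GFP (log2 -0.22 ± 0.03). With shAhR-1 it was not called in BE2C (398 ± 9.7 CPM, log2 0.01 ± 0.03) and was higher in Kelly (238 ± 6.11 CPM, log2 0.17 ± 0.029). ANAPC10 and OTUD4 overlap its exons on the other strand (7.49% and 4.41% of its bases). ABCF2 followed the same order, at log2 -0.04 ± 0.051 and -1.40 ± 0.054 in BE2C and 0.13 ± 0.05 and -0.56 ± 0.051 in Kelly; the Kelly shAhR-1 call was lost without a filter and without pLKO-GFP library 1 or 2 or shAhR-1 library 3 (log2 0.09 to 0.12, edgeR adjusted p = 0.0533 to 0.177). ABCF2 has listed pseudogenes and shares 45.8% of its exon bases with the gene AC021097.2. ABCF3 fell with both hairpins in BE2C (log2 -0.16 ± 0.045 and -0.21 ± 0.045) and was higher with both in Kelly (0.09 ± 0.04 and 0.44 ± 0.039); the Kelly shAhR-1 call was lost with DESeq2 and without a filter at a log2 fold change still of 0.09 (adjusted p 0.0554 to 0.0812), and without pLKO-GFP library 2 or shAhR-1 library 2 or 3 (log2 0.07, edgeR adjusted p = 0.167 to 0.192).

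Of 4 other genes of ribosome rescue and stall sensing, 2, 4, 3 and 3 fell with BE2C shAhR-1, BE2C shAhR-2, Kelly shAhR-1 and Kelly shAhR-2, beside 27.1%, 37.2%, 31% and 38.2% of all genes. PELO, which works beside ABCE1 on stalled ribosomes, fell in all 4 (log2 -0.20, -1.29, -0.26 and -1.01), as did its partner HBS1L (-1.09, -1.20, -1.32 and -1.19).

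The sulfonylurea receptors were the last role group. ABCC9, the SUR2 subunit of potassium channels in muscle and vessels, had 8.42, 7.50 and 7.36 CPM in BE2C shAhR-1, 0.839, 0.776 and 0.622 CPM in BE2C shAhR-2, and 7.45, 7.64 and 7.61 CPM in BE2C pLKO-GFP. In Kelly it had 2.01, 1.21 and 2.28 CPM in shAhR-1, 0.244, 0.163 and 0.411 CPM in shAhR-2, and 1.06, 1.84 and 1.03 CPM in pLKO-GFP. The shAhR-2 libraries were far below their controls in both lines, and the shAhR-1 libraries overlapped theirs. The log2 fold changes with shAhR-2 were -3.33 ± 0.16 in BE2C and -2.25 ± 0.37 in Kelly (edgeR adjusted p = 8.36e-19 and 3.11e-07). ABCC8, the SUR1 subunit of beta cells and neurons, was tested in Kelly only, where it had 7.82 ± 0.48 CPM in shAhR-1, 17.8 ± 0.783 CPM in shAhR-2 and 10.6 ± 0.313 CPM in pLKO-GFP (log2 -0.43 ± 0.09 and 0.75 ± 0.082, edgeR adjusted p = 4.3e-05 and 1.44e-11). Of the pore subunits, KCNJ8 fell with BE2C shAhR-2 (log2 -1.39 ± 0.049) and Kelly shAhR-2 (-0.16 ± 0.063) and rose with Kelly shAhR-1 (0.33 ± 0.062), and KCNJ11 fell with both Kelly hairpins (-0.66 ± 0.18 and -0.42 ± 0.17).

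The hairpins were also set against each other. In BE2C, 9 of 33 members were higher and 14 lower with shAhR-1 than with shAhR-2, 69.7% beside 72.4% of all genes (35.9% higher and 36.5% lower). In Kelly, 11 of 36 were higher and 17 lower, 77.8% beside 77.4% (39.3% higher and 38.2% lower). Both counts include the members that passed through shAhR-2 alone, ABCA1 and ABCC6 in BE2C and ABCA4, ABCA10 and ABCC3 in Kelly. For these the filter favoured a higher level with shAhR-2, so their gaps are a description. The largest gaps of each sign in BE2C were ABCA12, at 71.0 ± 6.12 CPM with shAhR-1 and 1.78 ± 0.236 CPM with shAhR-2 (log2 5.30 ± 0.09), and ABCA1, at 0.215 ± 0.142 and 3.86 ± 0.716 CPM (log2 -4.2 ± 0.34). In Kelly, the largest gap below 0 was that of ABCA4, which had no count with shAhR-1, and the largest above 0 that of ABCD2. ABCD2 had 4.90 ± 0.842 CPM with shAhR-1 and 0.623 ± 0.2 CPM with shAhR-2 (log2 3.00 ± 0.2), ABCA1 had 1.54 ± 0.378 and 14.7 ± 0.646 CPM (log2 -3.25 ± 0.14), and ABCC4 had 25.5 ± 1.81 and 103 ± 0.732 CPM (log2 -2.0 ± 0.046). ABCD3 was called in neither line (log2 0.03 ± 0.041 in BE2C and -0.07 ± 0.044 in Kelly).

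Whether a hairpin acted differently in the lines was tested in 1 fit of all 18 libraries, as the effect in BE2C minus that in Kelly. For shAhR-1, 5 of 36 members had a difference above 0 and 8 below it, 36.1% beside 35.7% of all genes (17.5% above and 18.2% below). For shAhR-2, 11 were above and 13 below, 66.7% beside 54.7% (28.8% above and 25.8% below). These counts include the members that passed within a line through shAhR-2 alone. The differences of at least 1 on the log2 scale for shAhR-1 were those of ABCA12 (-1.64 ± 0.31, edgeR adjusted p = 2.29e-05), ABCB1 (-1.06 ± 0.071, 4.72e-17) and ABCC6, whose BE2C controls had no count. AHR was not called lower in the libraries labelled Kelly shAhR-1 and could not be tested in BE2C, so whether the knockdown was equal in the lines was not shown.

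For shAhR-2, ABCA12 had the widest difference that did not rest on a group at 0, -4.87 ± 0.38 (edgeR adjusted p = 1.58e-15), since it was lower than its controls in BE2C and higher in Kelly. ABCC4, with the same pair of signs, differed by -1.39 ± 0.075 (edgeR adjusted p = 2.49e-21). ABCA1 had a larger fitted effect in BE2C (difference 1.65), given with no p because it passed there through shAhR-2 alone. ABCD2, called downward in both, had a larger effect in Kelly (2.04 ± 0.22, edgeR adjusted p = 2.72e-11). ABCA5 (1.46 ± 0.26), ABCB8 (1.20 ± 0.081) and ABCG1 (-1.42 ± 0.18) had effects called with shAhR-2 in BE2C but not in Kelly (edgeR adjusted p of the differences = 5.99e-06, 1.32e-17 and 4.16e-09). ABCC9 differed by -1.10 ± 0.43 (edgeR adjusted p = 0.0251), a call lost without BE2C shAhR-2 library 3, Kelly pLKO-GFP library 1 or 3, or Kelly shAhR-2 library 3 (-0.99 to -0.67, edgeR adjusted p = 0.0527 to 0.302). Among the MYCN-linked genes, ABCC1 differed by 0.83 ± 0.059 with shAhR-2 (edgeR adjusted p = 5.53e-17). For ABCC3, which passed in Kelly through shAhR-2 alone, the difference was -0.72 ± 0.52 and was not called.

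**Figure D5:**
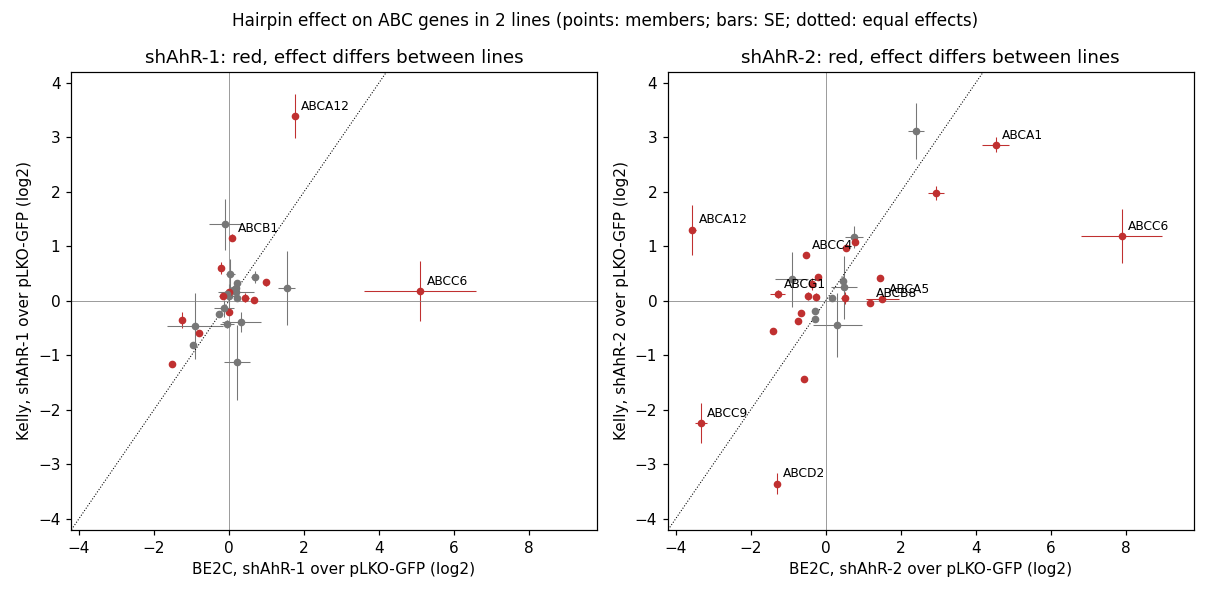
Log2 fold change of tested ABC genes over pLKO-GFP in BE2C (across) and Kelly (upward), for shAhR-1 at left and shAhR-2 at right, with SE bars. Red marks members whose effect differed between the lines at an adjusted p below 0.05, and those at least 1 apart on the log2 scale are named; ABCA12 lies far above the dotted line of equal effects in both panels, and ABCC6 lies far to the right because its BE2C controls had no count.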

How the data were processed

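Whole-number counts per gene were deposited by the authors in 2 tables, 1 per line, of 39368 genes and 9 libraries each. Per the labels' protocols, total RNA was taken with the miRNeasy kit and made into libraries with the RNA HyperPrep kit with RiboErase; per the submitters' processing notes, CASAVA 1.8.2, STAR 2.7.9a and GRCh38.p7 were used. No source used here gives the counting tool, its annotation or its strand setting. Of the counts from 1 to 20, between 68.3% and 72.5% per library were even numbers; mates of a pair may thus have been counted one by one, and halved counts were an alternative.

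Each line was fitted alone in edgeR 4.0.16 (R 4.3.3) on all genes, with filterByExpr, TMM scaling and 1 mean per group. The quasi-likelihood F test was used, with Benjamini-Hochberg adjustment over all genes tested and calls at an adjusted p below 0.05. Hairpin comparisons are shAhR over pLKO-GFP. Differences between lines and between the vector controls came from a fit of all 18 libraries. The SE was taken from the fold change and F. CPM used 1 TMM scaling of all 18 libraries, and values after ± of CPM are SD over 3 libraries. Counting depth limits members under about 1 CPM. Members were compared per kb of merged exons of GENCODE 29, from which loci on GRCh38 also come; promoters are from RefSeq, GRCh38.p14. Pseudogenes were those listed by name in the tables. A member passed through 1 group alone where all 3 libraries of that group, and fewer than 3 of the others, reached the filter's minimum; counts without such members were added after the data were seen.

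The members, role groups and pathway and marker lists were chosen with earlier results of these data known. Some members are counted but not reported singly here. Values in every library are given for members called in all 4 hairpin comparisons, for ABCA12, ABCC1, ABCC3 and ABCC4, and for the 4 members with the largest smaller fold change in each direction in each line; those for ABCB1, ABCA1, ABCC9, ABCG2 and the low counts of ABCA4 and ABCA10 were added after their values were seen. Members were named when called with both hairpins in the same direction in either line, when a hairpin effect differed between lines by at least 1 on the log2 scale, or when the controls differed by at least 3. The other members named (ABCC2, ABCC11, ABCB4, ABCG4, ABCG8, ABCE1, ABCF2, ABCA4) were chosen with their values known. Alternatives were RLE size factors, no filter, a mean CPM of at least 1, DESeq2 1.42.0, the replicate number as a block, halved counts, no mitochondrially encoded genes, only the groups compared, and leaving out each library.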

Additional observations from a re-analysis of the deposited data

Results flagged for a closer look

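Several members responded to a hairpin differently in the lines, by the test of the difference itself (effect in BE2C minus effect in Kelly, log2, edgeR adjusted p below 0.05 and at least 1 in size). With shAhR-1 these were ABCA12 (-1.64), ABCB1 (-1.06) and ABCC6 (4.93). With shAhR-2 they included ABCA1 (1.65), ABCA12 (-4.87), ABCA5 (1.46), ABCB8 (1.20), ABCC4 (-1.39), ABCC6 (6.68), ABCC9 (-1.10), ABCD2 (2.04) and ABCG1 (-1.42). The fitted values of ABCC6 rest on BE2C controls with no count and give no bound. ABCA1 and ABCC6 passed the filter in BE2C through shAhR-2 alone. Their fitted shAhR-2 differences, 1.65 for ABCA1 and 6.68 for ABCC6, are thus a description and are left out of the tested list. With shAhR-2, ABCA12 and ABCC4 changed in opposite directions in the lines; the others kept their direction or were called in only 1 line. The line cannot be told apart from other differences between the 2 tables.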

How the results depend on the processing

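The 22 counts of members called in the hairpin, line and control comparisons stayed within 1.5 times their reported values under every alternative that was run. Of 218 calls of single members, 23 were lost under at least 1 alternative that still tested the member, and 1 changed sign. Without a filter on low counts, ABCF1 in BE2C pLKO-GFP over Kelly pLKO-GFP gave 0.011 (edgeR adjusted p = 0.932) in place of -0.08, and the cause was not tested. Calls of members that an alternative's own filter removed are not among the 23. With a mean CPM of at least 1, members higher went from 18 to 14 with Kelly shAhR-2 and from 15 to 13 with BE2C shAhR-2. Halved counts gave 15 with Kelly shAhR-2. Leaving out each library gave 11 to 13 members higher and 6 to 7 lower with BE2C shAhR-1, 15 to 17 and 15 to 16 with BE2C shAhR-2, 11 to 14 and 7 to 8 with Kelly shAhR-1, and 17 to 18 and 8 with Kelly shAhR-2. Without library 1 of BE2C shAhR-2, 3 calls were lost, among them ABCB1 with BE2C shAhR-1 and ABCF1 between controls. Replicate numbers are shared across groups, but same-numbered libraries did not visibly deviate together (correlations of -0.056 to 0.0488 in BE2C and -0.0263 to 0.0196 in Kelly). No pairing by number was seen, though with 3 libraries per group a weak pairing could be missed. With the replicate number as a block, members called came to 13 and 7 with BE2C shAhR-1, 15 and 15 with BE2C shAhR-2, 14 and 8 with Kelly shAhR-1 and 18 and 8 with Kelly shAhR-2, and 6 single calls were lost. Depth limits ABCC6, ABCA4, ABCA10, ABCB4 and ABCC3 in Kelly, whose counts per library are low.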

Other observations

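Some ABC proteins carry other symbols. TAP1, a peptide transporter of antigen presentation, had 1.88 CPM in BE2C shAhR-2, 0.174 CPM in BE2C shAhR-1 and 0.0986 CPM in BE2C pLKO-GFP. Its partner TAP2 was not called in that comparison (1.14 CPM against 0.838 CPM, log2 0.45 ± 0.32, edgeR adjusted p = 0.21). In Kelly, TAP1 and TAP2 did not pass the filter on low counts, and CFTR passed in neither line.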
